A study of Mus musculus with 8 samples.

Results

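The 10 genes described here were G6pc, Pck1, Pck2, Fbp1, Pcx, Slc37a4, Ppargc1a, Crtc2, Creb1 and Pdk4, which code for the enzymes of hepatic glucose production, the factors that switch their transcription on, and a kinase that decides the use of pyruvate. They were chosen by name, not by their values. All 10 were found by gene symbol among the 21532 genes of the deposited table, and all 10 were among the 15989 genes tested. The table holds normalized read counts of liver mRNA from 8 male db/db mice. A db/db mouse has no working leptin receptor and becomes obese and diabetic, and both groups carried this genotype on the C57BL/6J background. Mice received control or AF1 peptide by retro-orbital injection for 5 weeks (2 injections of 5 mg/kg each week) from 8 weeks of age, with 4 mice per group. AF1 peptide is a synthetic piece of the estrogen receptor ERα joined to a TAT sequence for entry into cells. The control agent and the feeding state at liver collection are not given in the sources used here, and lean mice were not analysed here. The comparison asks how the liver transcripts of treated and control diabetic mice differed.

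Gluconeogenesis makes glucose from lactate, alanine, other amino acids and glycerol, and it runs mainly in hepatocytes near the portal vein. Pyruvate carboxylase (Pcx) and phosphoenolpyruvate carboxykinase (cytosolic Pck1, mitochondrial Pck2) bypass the pyruvate kinase step of glycolysis, fructose-1,6-bisphosphatase (Fbp1) bypasses phosphofructokinase, and glucose-6-phosphatase (G6pc) releases free glucose after the transporter Slc37a4 has carried glucose 6-phosphate into the endoplasmic reticulum. Glucagon raises several of these transcripts through cAMP, the factor CREB (Creb1) and its coactivators CRTC2 (Crtc2) and PGC-1α (Ppargc1a), whereas insulin lowers them by removing the forkhead factor FOXO1 from the nucleus. Pdk4 phosphorylates and switches off pyruvate dehydrogenase, which leaves pyruvate for Pcx.

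Of the 10 genes, Crtc2 was above all control values and Pcx below all control values in each of the 4 mice given AF1 peptide, and the other 8 overlapped between the groups. Among all tested genes 2.05% lay apart in this way upward and 1.85% downward. For all 10 the adjusted p was at least 0.763 (limma, Benjamini-Hochberg over 15989 genes). AF1 peptide replicate 1 stood apart: it was the highest of the 8 mice in 7 of the genes and the lowest in 2. The log2 fold change of each of the 10 genes is therefore given with and without it. By that choice alone, leaving it out lowers the treated mean where it was highest and raises it where it was lowest.

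The promoters of 4 of the 7 genes with their highest count in AF1 peptide replicate 1 are shown. Hormones are known to act on such genes through sites near the start of transcription. Slc37a4, Crtc2 and Creb1 were also highest in that mouse and are not shown. Each window holds the 250 bases upstream of the annotated start site, 5′ to 3′ on the gene's strand, from RefSeq on GRCm38.p6. Capitals mark matches to the motifs named after the sequences, on either strand, and a match on the opposite strand appears as the reverse complement. Overlapping matches would merge into 1 run of capitals, but none overlapped in these windows.
Pck1 (chr2:173152823-173153072, plus strand): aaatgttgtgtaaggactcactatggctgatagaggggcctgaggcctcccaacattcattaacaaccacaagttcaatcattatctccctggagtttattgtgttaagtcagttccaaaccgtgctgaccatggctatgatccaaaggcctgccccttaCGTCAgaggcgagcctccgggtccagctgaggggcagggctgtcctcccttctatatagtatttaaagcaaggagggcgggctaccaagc
G6pc (chr11:101367466-101367715, plus strand): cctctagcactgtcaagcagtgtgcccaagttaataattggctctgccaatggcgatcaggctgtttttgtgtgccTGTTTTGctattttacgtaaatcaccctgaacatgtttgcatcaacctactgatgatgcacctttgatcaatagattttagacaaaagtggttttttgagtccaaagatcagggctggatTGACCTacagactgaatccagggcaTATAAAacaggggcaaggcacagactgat
Ppargc1a (chr5:51567726-51567975, minus strand): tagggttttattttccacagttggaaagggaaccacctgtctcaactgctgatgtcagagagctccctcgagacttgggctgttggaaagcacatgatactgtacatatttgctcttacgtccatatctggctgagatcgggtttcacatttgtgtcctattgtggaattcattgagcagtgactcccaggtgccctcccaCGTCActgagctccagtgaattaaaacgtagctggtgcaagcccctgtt
Fbp1 (chr13:62888283-62888532, minus strand): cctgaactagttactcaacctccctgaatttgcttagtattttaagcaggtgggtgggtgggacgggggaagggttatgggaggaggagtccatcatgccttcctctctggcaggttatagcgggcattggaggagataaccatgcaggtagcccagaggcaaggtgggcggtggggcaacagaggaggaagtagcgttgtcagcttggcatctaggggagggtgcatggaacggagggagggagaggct
The 5 letters TGACG, which are the first part of the full cAMP response element TGACGTCA, occurred on the opposite strand at -90 to -86 in Pck1 and at -49 to -45 in Ppargc1a, counted from the start site. Both windows lacked the full element. G6pc held TGTTTTG, a forkhead (insulin response) motif, at -174 to -168, AGGTCA, a nuclear receptor site, on the opposite strand at -54 to -49, and TATAAA at -29 to -24. None of these letters was found in the Fbp1 window. Of all 32851 promoter windows of this length, 17.8% held TGACG and 1.55% the full element. The forkhead motif was present in 5.56% of them, the nuclear receptor motif in 14.0% and the TATA motif in 12.4%. The forkhead motifs GTAAACA and, in its other insulin response form, TATTTTG, the glucocorticoid receptor motif AGAACA and the C/EBP motif TTGCGCAA were found in none of the 12 windows searched. Windows were given for 9 of the 10 genes, 12 in all because some genes have several start sites, and TGACG was in 4 of them. Besides those of Pck1 and Ppargc1a, these were overlapping windows of Slc37a4 that share a site, so the 4 are not independent. Crtc2 had no entry. A match describes the letters of a window, not binding.

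The libraries held 35260283 to 45117528 reads in control mice and 23031880 to 43978158 in AF1 peptide-treated mice, and the smallest count of any of the 10 genes in a mouse was 70 reads, for Pdk4 in AF1 peptide replicate 1. The tissue labels matched the markers, since the summed normalized count of 8 hepatocyte genes such as Alb was 1753820 to 2598820 per mouse. G6pc, Pck1 and Fbp1 are also used by kidney and intestine. Of 7 kidney proximal tubule markers 1 was in the table, Lrp2, at 0 to 15.6 normalized counts, and of 6 intestinal epithelium markers 3 were in it. Lct was at 0 to 5.77 and Vil1 at 2.47 to 8.65, whereas Fabp2, which liver expresses too, was at 2524 to 7333. In a bulk liver sample, fewer cells of a type and less RNA per cell cannot be told apart, and this holds for every difference below.

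Compared per kilobase of exon, Pck1 was the most abundant of the 10 genes in control mice, with 11193 ± 1820 normalized counts per kilobase (SD, n = 4). Fbp1 followed with 6678 ± 1433, G6pc with 3105 ± 936, Pcx with 2789 ± 160 and Slc37a4 with 1162 ± 115. The regulators were far lower, with 300.5 ± 30.1 for Crtc2, 16.8 to 19.7 for Ppargc1a and 13.3 to 14.4 for Creb1. Pdk4 had 74.2 ± 7.03 and Pck2 had 28.0 ± 4.91. In this order of control levels only the neighbours G6pc and Pcx overlapped between mice. The group means of AF1 peptide-treated mice kept the order except that Ppargc1a (28.5 ± 15.4) stood just above Pck2 (28.1 ± 4.52), and these 2 genes overlapped there. The neighbours Pck1 and Fbp1, Fbp1 and G6pc, G6pc and Pcx, and Pdk4 and Ppargc1a overlapped between treated mice too. The cytosolic enzyme Pck1 exceeded the mitochondrial Pck2 280 to 555 times per kilobase in control mice and 180 to 999 times in AF1 peptide-treated mice, and the groups overlapped (exact permutation test of the log2 ratio, two-sided, p = 0.914).

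**Figure D1:**
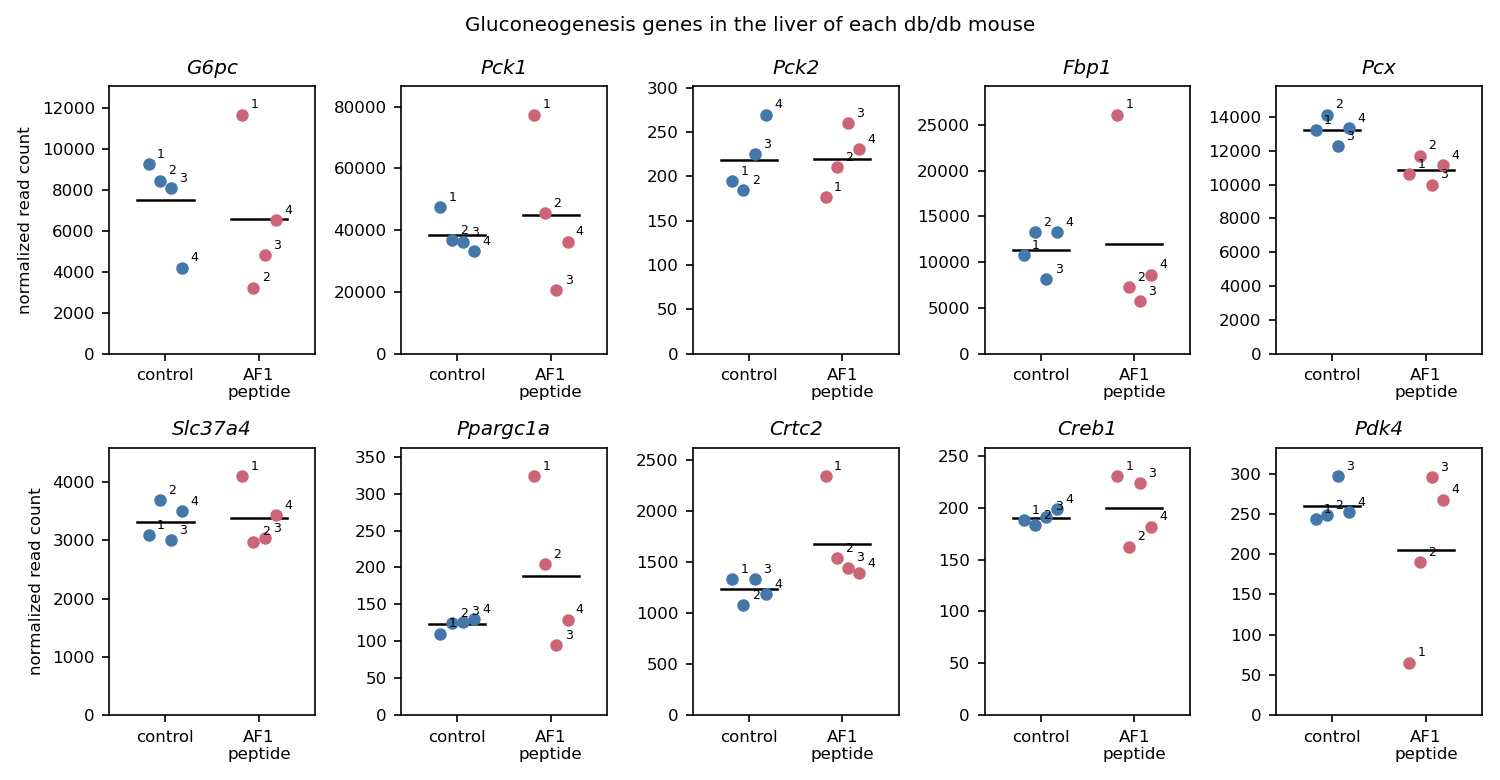
Normalized read count (vertical axes, each from 0) of the 10 genes in the liver of each db/db mouse, with control mice in blue and AF1 peptide-treated mice in red. Points are mice with their replicate numbers and bars are group means. The groups are separate for Pcx (12289 to 14148 in control mice, 10005 to 11722 with AF1 peptide) and Crtc2 (1075 to 1331 and 1389 to 2339), and AF1 peptide replicate 1 is the highest point in 7 panels.

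Pcx, whose product makes oxaloacetate from pyruvate in the mitochondrion, had normalized counts of 13220, 14148, 12289 and 13360 in control replicates 1 to 4 and of 10606, 11722, 10005 and 11157 in AF1 peptide replicates 1 to 4. Every treated mouse lay below every control mouse, and AF1 peptide replicate 1 lay among the other treated mice. The means were 13254 ± 762 and 10873 ± 736 (SD, n = 4 each), a ratio of 0.820 in the fitted values. On the log2 scale the difference was -0.29 (standard error 0.11, 95% interval -0.52 to -0.05, adjusted p = 0.763 in limma), and the unadjusted limma p was under 0.05. The two-sided exact permutation test gave p = 0.0286, the smallest that 4 against 4 mice allow. The difference did not reach 1.3-fold, so Pcx was not counted as called. It was -0.28 without AF1 peptide replicate 1. The unadjusted limma p was above 0.05 without control replicate 2, at -0.25, and without AF1 peptide replicate 3, also at -0.25.

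Pck1, the carboxykinase that turns cytosolic oxaloacetate into phosphoenolpyruvate, had 47451, 36743, 36108 and 33217 normalized counts in control mice and 77425, 45539, 20589 and 36268 in AF1 peptide-treated mice. The treated mice held both the highest and the lowest value of the 8, and the groups overlapped. The means were 38380 ± 6239 and 44955 ± 23971, with a log2 fold change of 0.08 (standard error 0.34, 95% interval -0.67 to 0.83, exact permutation p = 0.857). It turned to -0.23 without AF1 peptide replicate 1 (adjusted p = 0.761 in limma). Pck2, its mitochondrial counterpart, had 194, 184, 225 and 270 normalized counts in control mice and 176, 210, 260 and 231 in treated mice. These values overlapped throughout, and the 95% interval of the log2 fold change of 0.01 ran from -0.35 to 0.37. A share of 1.64% of the 50-base words of Pck2 also occurs in transcripts of other genes, so a small part of its reads could be shared, and 53 exon bases overlap the opposite-strand gene Gm10876. The log2 fold change was 0.11 without AF1 peptide replicate 1.

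Fbp1, which removes a phosphate from fructose 1,6-bisphosphate, had 10739, 13261, 8176 and 13288 normalized counts in control mice. In the AF1 peptide-treated mice it had 26130, 7264, 5703 and 8635. AF1 peptide replicate 1 was 2.30 times the control mean, whereas the 3 other treated mice were lower than 3 of the 4 control mice and overlapped only with control replicate 3. Over all 8 mice the means were 11366 ± 2439 and 11933 ± 9540 and the log2 fold change was -0.18 (standard error 0.40, 95% interval -1.07 to 0.71, exact permutation p = 0.800). With AF1 peptide replicate 1 left out, the log2 fold change was -0.65 (standard error 0.19, 95% interval -1.06 to -0.25, adjusted p = 0.452 in limma), and Fbp1 was then called lower. The mean of these 3 mice was 7201 ± 1467.

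G6pc, the enzyme of the last step, had 9263, 8440, 8090 and 4188 normalized counts in control mice. It had 11661, 3216, 4794 and 6502 in AF1 peptide-treated mice. Both extremes belonged to treated mice, and control replicate 4 fell among the treated mice, so the groups overlapped. The means were 7495 ± 2259 and 6543 ± 3666, with a log2 fold change of -0.30 (standard error 0.37, 95% interval -1.11 to 0.52, exact permutation p = 0.571). In the absence of AF1 peptide replicate 1 it was -0.63 (adjusted p = 0.493 in limma), with a mean of 4837 ± 1643 in the 3 remaining treated mice, and G6pc was then called lower. Slc37a4, the glucose 6-phosphate transporter that works with G6pc, had 3087, 3690, 3002 and 3497 normalized counts in control mice and 4104, 2979, 3038 and 3438 in treated mice. Apart from AF1 peptide replicate 1, the treated mice lay within or just below the control range, and the log2 fold change was 0.02 (95% interval -0.25 to 0.30), or -0.07 without that mouse. The per-kilobase ratio of G6pc to Slc37a4 was 1.42 to 3.55 in control mice and 1.28 to 3.36 in treated mice, and the difference was not larger than their spread (exact permutation p = 0.457).

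Crtc2, the coactivator that enters the nucleus when glucagon signals and binds CREB, had 1331, 1075, 1327 and 1187 normalized counts in control mice. It had 2339, 1534, 1443 and 1389 in AF1 peptide-treated mice. All treated mice were above all control mice, with AF1 peptide replicate 1 far above the rest. The means were 1230 ± 123 and 1676 ± 445, a fitted ratio of 1.34, and the log2 fold change was 0.42 (standard error 0.16, 95% interval 0.06 to 0.78, limma adjusted p = 0.763, exact permutation p = 0.0286). It was called higher, by its unadjusted p and its size. Without AF1 peptide replicate 1 the log2 fold change was 0.25, with the unadjusted p still under 0.05 but the difference under 1.3-fold, and the other treated mice had a mean of 1456 ± 73.2. The call was also lost without control replicate 2 (0.36), without control replicate 4 (0.40), with each gene's own variance (0.42) and with libraries scaled to equal totals (0.33).

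Creb1, which codes for CREB, had 188, 183, 191 and 198 normalized counts in control mice, with the smallest relative spread of the 10 genes. In the treated mice it had 230, 163, 224 and 182, and the group means differed by a log2 fold change of 0.06 (95% interval -0.25 to 0.36). The treated mice lay on both sides of the controls, and the log2 fold change was -0.02 without AF1 peptide replicate 1. The per-kilobase ratio of Crtc2 to Creb1 was 19.7 to 23.8 in control mice and 21.6 to 34.1 in treated mice (exact permutation p = 0.0857). Ppargc1a, which codes for the coactivator PGC-1α, had 110, 125, 126 and 130 normalized counts in control mice and 324, 205, 94.7 and 129 in treated mice. AF1 peptide replicates 1 and 2 were above every control mouse, replicate 4 was level with the highest control and replicate 3 was below every control mouse. The log2 fold change was 0.46 (standard error 0.32, 95% interval -0.24 to 1.16, exact permutation p = 0.343). It was 0.15 without AF1 peptide replicate 1, and 0.73 without AF1 peptide replicate 3, where Ppargc1a was called higher.

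Pdk4, the kinase that inhibits pyruvate dehydrogenase and is known to be raised by fasting, had 244, 249, 297 and 252 normalized counts in control mice. It had 65.3, 190, 296 and 268 in treated mice. AF1 peptide replicate 1 held 0.251 times the control mean, replicate 2 was below every control mouse, and the other treated mice were within the control range. The means were 261 ± 24.7 and 205 ± 103, with a log2 fold change of -0.55 (standard error 0.39, 95% interval -1.42 to 0.32, exact permutation p = 0.371). The 3 other treated mice gave -0.07. A share of 1.40% of its 50-base words also occurs in other genes' transcripts.

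**Figure D2:**
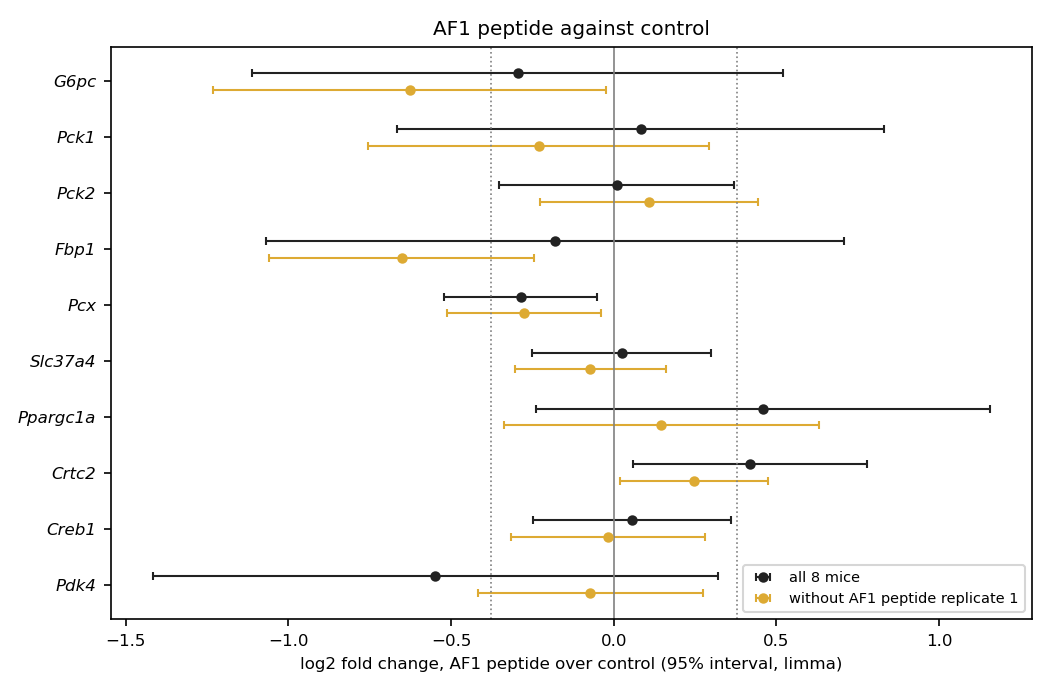
Log2 fold change of AF1 peptide over control (horizontal axis) for each of the 10 genes with its 95% limma interval, over all 8 mice (black) and without AF1 peptide replicate 1 (yellow). The dotted lines mark 1.3-fold. With all mice the intervals of Pcx and Crtc2 lie off 0, and without AF1 peptide replicate 1 those of G6pc and Fbp1 do too, both below 0. The mouse left out had the highest count of G6pc and of Fbp1.

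Counted over the list, 1 of the 10 genes (Crtc2) was called higher, that is with an unadjusted limma p under 0.05 and more than 1.3-fold, where 1.79% of all tested genes were. None was called lower, where 1.90% of all tested genes were. An unadjusted p under 0.05 at any size was found for 2 of the 10 genes, by limma, against 6.19% of all tested genes. One gene did not overlap upward (Crtc2, against 2.05% of all tested genes) and 1 downward (Pcx, against 1.85%). The log2 fold change was above 0 for 6 genes and below 0 for 4, with a median of 0.02 beside -0.01 over all tested genes. After AF1 peptide replicate 1 was left out, 3 genes were above 0 and 7 below, and the median was -0.07. In those 7 mice G6pc and Fbp1 were called lower, where 3.04% of all tested genes were. None of the 10 was called higher, where 2.86% of all tested genes were. Pck1, Slc37a4 and Creb1 changed sign. AF1 peptide replicate 1 was set apart for being the highest mouse in 7 of these genes, G6pc and Fbp1 among them. Leaving it out was bound to lower their treated means, so these shifts are not separate evidence of lower levels. Scaling the libraries to equal totals moved the median of all tested genes to -0.10, so counts of genes above and below 0 shift with it. No gene of the whole table had a limma adjusted p under 0.05, where 990 had an unadjusted p under 0.05. On the recovered reads, edgeR gave 0 genes and DESeq2 gave 3 genes with an adjusted p under 0.05.

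With all 8 mice, the treated mice varied more than the control mice. The coefficient of variation was 3.39% to 30.1% in control mice and 6.77% to 79.9% in AF1 peptide-treated mice, and it was larger in the treated mice for 9 of the 10 genes, Pck2 being the exception. Part of this came from AF1 peptide replicate 1. Without it the treated SD fell below the control SD in Fbp1 (1467 against 2439), G6pc (1643 against 2259), Slc37a4 (250 against 329) and Crtc2 (73.2 against 123). It stayed above in Pck1, Pcx, Ppargc1a, Creb1 and Pdk4. Seen by mouse, AF1 peptide replicate 1 lay more than 0.5 on the log2 scale from the control mean in 6 genes. It was above the control mean in Ppargc1a (2.63 times), Fbp1 (2.30 times), Pck1 (2.02 times), Crtc2 (1.90 times) and G6pc (1.56 times), and below it in Pdk4. AF1 peptide replicates 2 and 3 were that far from the control mean in 3 genes each. Replicate 2 was the lowest of the 8 mice in 3 genes and replicate 3 in 4. Replicate 4 was neither the highest nor the lowest in any gene, and its mean absolute distance from the control mean (0.13) was like that of the control mice (0.13 to 0.19). Ppargc1a and G6pc parted in replicate 2, which had the second highest Ppargc1a and the lowest G6pc.

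**Figure D3:**
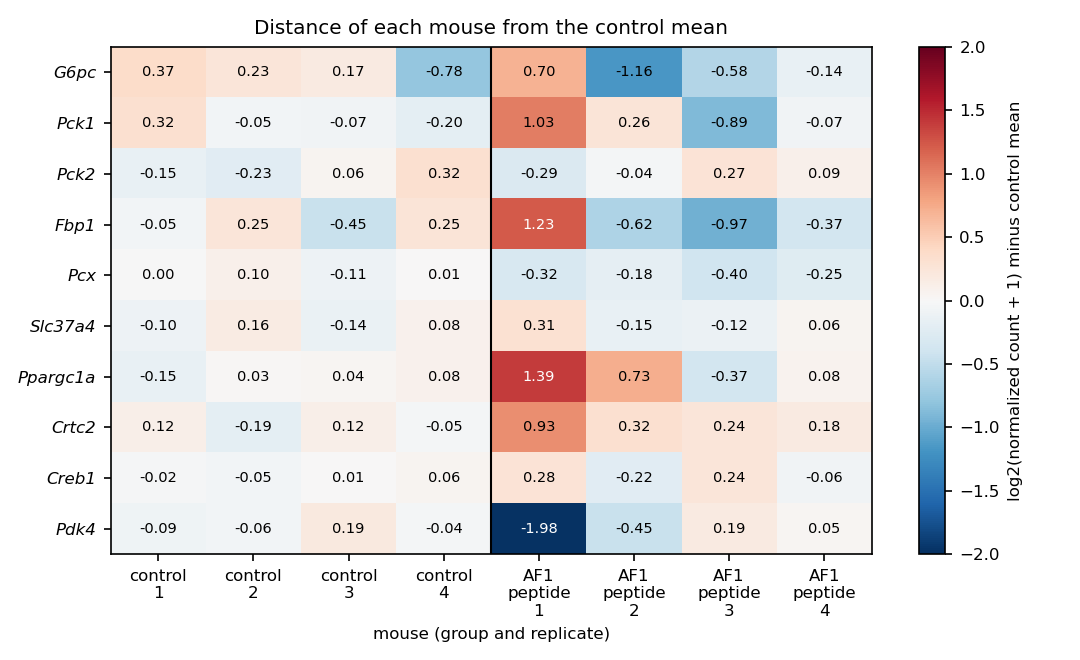
Distance of each mouse (columns) from the control mean for the 10 genes (rows), as log2(normalized count + 1) minus the mean of the control mice, printed in each cell and coloured red above and blue below 0. The column of AF1 peptide replicate 1 runs from 1.39 in Ppargc1a to -1.98 in Pdk4. The Pcx row is below 0 in all 4 treated mice and the Crtc2 row above 0 in all 4.

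AF1 peptide replicate 1 stood apart in some other gene lists too. Its mean log2 level of 10 glucocorticoid-responsive genes was 11.5, against 10.3 to 10.7 in the other 7 mice, and that of 13 periportal hepatocyte genes was 13.7, against 12.2 to 12.8. The mean of 16 genes induced by feeding was 12.1, against 12.8 to 13.1. That of 18 genes induced by fasting did not clearly stand apart, at 11.03 against 11.11 to 11.37. The median distance of the fasting genes from the control mean, -0.05, lay within the control range of -0.08 to 0.20. The summed normalized count of 7 Kupffer cell and macrophage markers was 2112 in this mouse and 4640 to 5806 in the others. Mitochondrial genes gave 20.8% of its reads against 22.4% to 37.8%. The summed count of the hepatocyte markers was 1753820 against 2139970 to 2598820. Their mean log2 level did not set this mouse apart, at 16.29 within the 15.94 to 16.35 of the others. The part of these differences in the levels of the 10 genes was not tested.

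Among 22 transcription factors and corepressors that act on these genes, 15 had a log2 fold change above 0 and 7 below, with a median of 0.13. Of the 22 genes, 1 was called higher, where 1.79% of all tested genes were. The called gene was Foxo1, the insulin-regulated activator of G6pc and Pck1. It had 525, 502, 485 and 509 normalized counts in control mice and 932, 658, 660 and 608 in AF1 peptide-treated mice. Every treated mouse was above every control mouse. The groups differed by 0.48 on the log2 scale (standard error 0.13, limma adjusted p = 0.763), and without AF1 peptide replicate 1 it was 0.34. Foxo1 was above 0 under all 19 alternatives and had an unadjusted p under 0.05 in 18 of them, the exception being scaling to equal totals (0.39). These alternatives reuse the same mice. Those that change only the filter, the variance or the block keep its fold change, so the tally is not independent support. The liver factor Hnf4a (0.03, standard error 0.12) and the C/EBP factor Cebpb (-0.18, standard error 0.14) overlapped between the groups, and without AF1 peptide replicate 1 they were at -0.04 and -0.28. Of the 22 genes, 11 were above and 11 below 0 without AF1 peptide replicate 1, where Sik1 alone was called lower and none higher. In that fit 3.04% of all tested genes were called lower and 2.86% higher.

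The receptor and cAMP side of the pathway gave 7 of 12 genes above 0 and 5 below, with no call and a median of 0.05. The glucagon receptor Gcgr had a mean of 14943 ± 1606 normalized counts in control mice and 17451 ± 1485 in treated mice (log2 fold change 0.23, standard error 0.12). Prkar2a, a regulatory subunit of protein kinase A, had the smallest p of the list, with a log2 fold change of 0.31 (standard error 0.11), under 1.3-fold. Of 7 genes repressed by insulin, 4 were above and 3 below 0, with no call. Igfbp1, a secreted binding protein of IGF that insulin represses, had 404, 295, 494 and 367 normalized counts in control mice and 1180, 119, 545 and 204 in treated mice. Its treated mice thus ran from the lowest to the highest of the 8 (log2 fold change -0.12, standard error 0.58). Its direction turned with the setting: it was at -0.69 without AF1 peptide replicate 1, at 0.41 without AF1 peptide replicate 2, and at 0.40 in edgeR on the recovered reads. Ppp1r3g, a glycogen-targeting subunit of protein phosphatase, had the smallest p of these 7 genes (0.72, standard error 0.48), and was at 0.28 without AF1 peptide replicate 1.

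Around pyruvate, 10 of 11 genes of pyruvate dehydrogenase and pyruvate entry were below 0, with a median of -0.20. Of the 11 genes, 1 was called lower, where 1.90% of all tested genes were. The called gene was Dlat, which codes for the acetyltransferase subunit of pyruvate dehydrogenase. Its means were 1188 ± 146 and 916 ± 156 normalized counts, with a log2 difference of -0.38 (standard error 0.14) and overlapping groups. With AF1 peptide replicate 1 left out, Dlat was at -0.27, no gene of the list was called, and again 10 of 11 were below 0, with a median of -0.27. All 9 genes of the reversible steps shared with glycolysis were below 0, with a median of -0.15, but none had an unadjusted limma p under 0.05, and Gpi1, an isomerase of glucose 6-phosphate, had the smallest p (-0.22, standard error 0.20, and -0.04 without AF1 peptide replicate 1). All 9 were again below 0 without AF1 peptide replicate 1, with a median of -0.26. Mdh1 alone was called lower, where 3.04% of all tested genes were.

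Of 21 genes for the entry of lactate, amino acids and glycerol, 13 were above 0 and 8 below, with a median of 0.06. The 1 gene called lower was Slc16a1, where 1.90% of all tested genes were called lower. Slc16a1, the monocarboxylate transporter that carries lactate and pyruvate across the cell membrane, had 1046, 1159, 971 and 901 normalized counts in control mice and 433, 769, 717 and 935 in treated mice. Only AF1 peptide replicate 4 reached the control range. The log2 fold change was -0.56 (standard error 0.20), and without AF1 peptide replicate 1 it was -0.34, under 1.3-fold and no longer called. Ldha, which interconverts lactate and pyruvate, was chosen after its values were seen. Its log2 fold change was -0.54 (standard error 0.25), and -0.70 without AF1 peptide replicate 1, where it was called lower. Without that mouse 5 genes of the list were above 0 and 16 below, and 3 were called lower (Ldha, Got1 and Tat, the last pair also chosen after their values were seen). In that fit 3.04% of all tested genes were called lower.

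Of the paralogs of the 10 genes, 9 of 14 tested were above 0 and 5 below, with no call and a median of 0.02. Pdk2, another pyruvate dehydrogenase kinase, had the smallest p: its means were 3503 ± 326 and 4407 ± 805 normalized counts, with a log2 fold change of 0.32 (standard error 0.14), under 1.3-fold, and 0.22 without AF1 peptide replicate 1. The paralogs of the coactivators, Ppargc1b (0.02, standard error 0.15) and Crtc1 (0.01), were close to 0, and both were chosen after their values were seen.

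**Figure D4:**
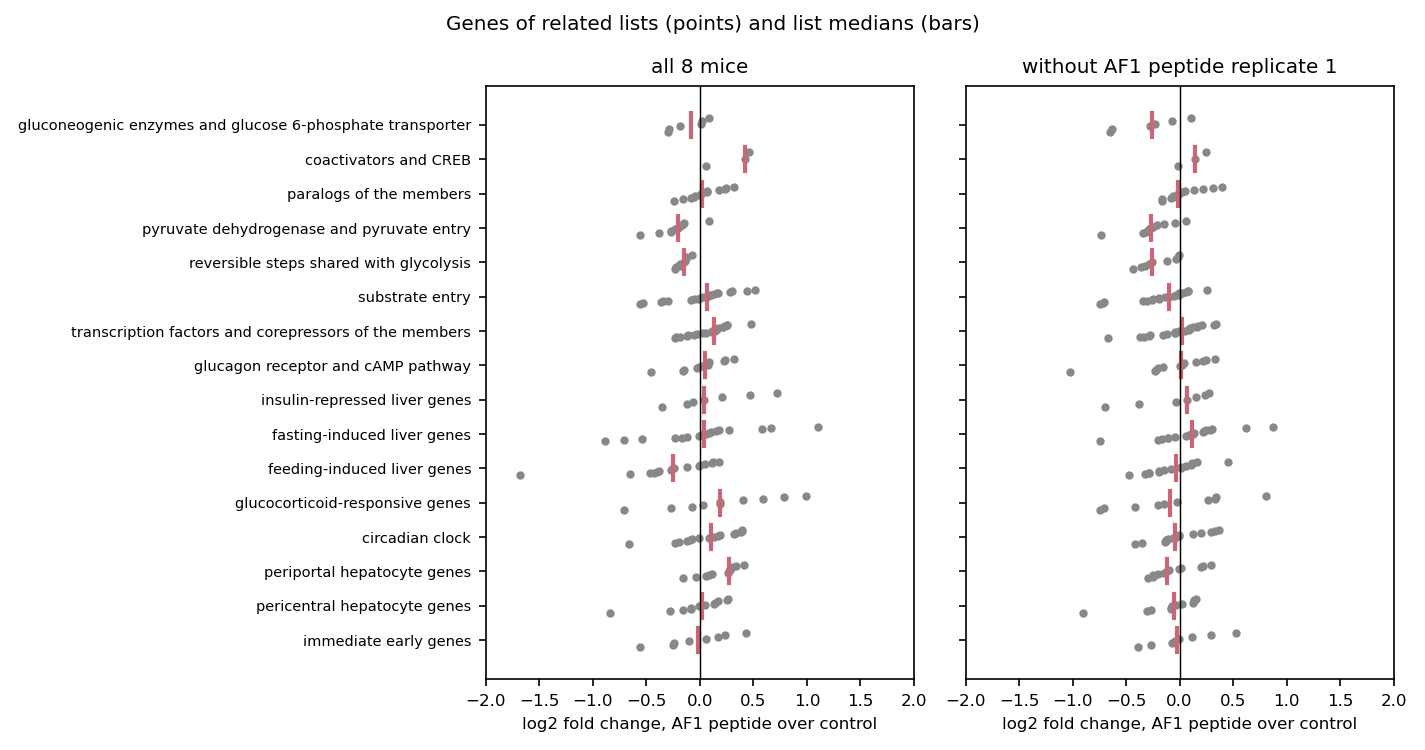
Log2 fold change of AF1 peptide over control (horizontal axis) of the tested genes of each related list, with all 8 mice (left) and without AF1 peptide replicate 1 (right). Points are genes and red bars list medians. The reversible steps lie below 0 in both panels, whereas the periportal median is 0.27 on the left and -0.12 on the right.

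Lists that report on hormones, feeding and position in the lobule were measured beside these, and no gene of any list had a limma adjusted p under 0.763. Their calls can be read against the 1.79% of all tested genes called higher and the 1.90% called lower. Of 18 fasting-induced genes, 11 were above 0 and 7 below, and Acot3, a peroxisomal thioesterase, was called higher (0.58, standard error 0.23). Of 16 feeding-induced genes, 5 were above and 11 below 0, and Fasn, the fatty acid synthase, was called lower (-0.47, standard error 0.19). Of 10 glucocorticoid-responsive genes, 7 were above and 3 below 0, and Zbtb16 (0.99, standard error 0.32) and Fkbp5 (0.41, standard error 0.14) were called higher. Of 16 circadian clock genes, 9 were above and 7 below 0, and Per2, a repressor of the clock, was among those called higher (0.39, standard error 0.15). Of 13 periportal genes, 11 were above 0 and none was called, with Uroc1 of histidine breakdown at 0.42 (standard error 0.22, and 0.20 without AF1 peptide replicate 1). Of 12 pericentral genes, 6 were above 0, and Nt5e, which makes adenosine outside cells, was called lower (-0.84, standard error 0.16). Of 8 immediate early genes, which respond within minutes to handling or hormones, 4 were above 0 and none was called, and Fos was at 0.43 (standard error 0.28). With AF1 peptide replicate 1 left out, the glucocorticoid list had 4 genes above and 6 below 0, the feeding list 8 and 8, and the periportal list 4 and 9. In those 7 mice Acot3 (0.62), Nt5e (-0.90) and Zbtb16 (0.81) were still called. Fasn (-0.28), Fkbp5 (0.26) and Per2 (0.37) fell under 1.3-fold and were no longer called. The glucocorticoid list then had 1 gene called higher and 3 called lower (Per1, Sgk1 and Tat). In the fit without that mouse 2.86% of all tested genes were called higher and 3.04% lower.

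The genes whose pattern over the 8 mice was most like that of Pck1 were Aadat, Ugt2a3, Serpinb1a, Abat and Aldh1l1, with a root mean square difference of 0.0987 to 0.153 on the log2 scale after each gene was centred on its own mean. Pck1 itself varied by 0.505 on this measure. Aadat, an aminotransferase of lysine and tryptophan breakdown, had 1537, 1325, 1202 and 1138 normalized counts in control mice and 2313, 1492, 783 and 1186 in treated mice. Like Pck1 it was highest in AF1 peptide replicate 1 and lowest in AF1 peptide replicate 3. For G6pc the nearest were Ppp1r3c, Irf2bp2, Atp5l-ps1, Dpy19l3 and Pim3, at 0.270 to 0.307, where G6pc varied by 0.596. Ppp1r3c, a glycogen-targeting subunit, had 478, 520, 411 and 303 normalized counts in control mice and 737, 225, 212 and 280 in treated mice. The likeness was ranked over 12442 genes and 8 mice, and the points share libraries and size factors. Atp5l-ps1 is a pseudogene copy, so part of its reads may come from its parent gene.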

How the data were processed

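Liver mRNA was measured by RNA-Seq in 8 mice, 1 library per mouse, with RNA extracted with TRIzol and a stranded mRNA kit. According to the paper and the submitters' processing notes, reads were trimmed with Trim Galore 0.6.7, aligned with HISAT2 to mm39, sorted with SAMtools 1.17 and counted per gene with GenomicAlignments. Which annotation, strand setting and normalization tool were used is not given in the sources used here. The authors deposited a signal per gene and mouse, the normalized read count, without pooling replicates. Multiplied by 1 size factor for its library, each value gave back whole reads (100% of 172256 values, within 0.01 reads). No column was left out. Read totals per mouse were 23031880 to 45117528.

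The log2(normalized count + 1) of genes with a mean of at least 10 was tested with limma 3.58.1 (R 4.3.3, moderated variances with an intensity trend, two-sided), with Benjamini-Hochberg adjustment over all 15989 genes tested. Fold changes on this scale understate those of low genes. A gene was called at an unadjusted p under 0.05 and more than 1.3-fold. The exact permutation test over 4 against 4 mice cannot go below p = 0.0286. edgeR 4.0.16 and DESeq2 1.42.0 were run on the recovered reads as alternatives. The fits were tested on simulated data. Groups came from the sample labels. The limma p values weigh the difference between groups against the spread between mice, with variances moderated over genes. The replicate numbers stand for different mice and were not used to pair them in the main fit.

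The 10 genes are named whatever their values, as are Foxo1, Hnf4a, Cebpb, Gcgr and Igfbp1. Of each other list, up to 3 called genes with the smallest p are named, or the 1 with the smallest p where none was called, and the 5 genes most like G6pc and Pck1. One gene that this rule names is not reported here. The genes and lists were chosen with earlier results of these data known. Markers of hepatocytes, macrophages, kidney and intestine were summed or listed per mouse. Exon lengths and shared 50-base words came from GENCODE M21 and promoters from RefSeq, both on GRCm38, a different build from that of the reads.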

Additional observations from a re-analysis of the deposited data

Results flagged for a closer look

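In a group of 4 mice, a value was picked out when the gap between the highest or lowest mouse and its nearest neighbour, taken as a share of the whole range, was above the 95% critical value for 4 values. This happened in 4 of 52 groups tested, where chance gives about 1 in 20, or 2.6. In 3 of them the mouse was AF1 peptide replicate 1. It was the highest of its group in Fbp1 (0.856) and in Crtc2 (0.847), both taken on normalized counts. It was also the highest in the mean log2 level of the glucocorticoid-responsive genes (0.954). The flags of Fbp1 and Crtc2 depend on the scale. As log2 distance from the control mean, this mouse was at 1.23 in Fbp1, against -0.97 to -0.37 in the other treated mice. In Crtc2 it was at 0.93, against 0.18 to 0.32. On that scale both gaps are smaller shares of the range and lie under the critical value. Control replicate 3 was the highest of its group in Pdk4 (0.847), where it had 297 normalized counts and the other control mice 244 to 252.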

How the results depend on the processing

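With 4 mice per group and no adjusted p of the 10 genes under 0.448 in any setting, the spread between mice limits every comparison. For single genes 174 of 200 alternative values kept their direction and their side of an unadjusted p of 0.05. That threshold leaves out the 1.3-fold part of a call, so Crtc2 without AF1 peptide replicate 1 is among the 174 although its call was lost. Several alternatives change only the filter, the variance, the block or the test, so their fold changes could not turn. All alternatives also reuse the same mice, so the 174 are not independent checks. Scaling the libraries to equal totals moved the median of all genes to -0.10 and turned Pck1 (-0.00818), Pck2 (-0.0825), Slc37a4 (-0.0675) and Creb1 (-0.0349). On the recovered reads Fbp1 was 0.0636 in edgeR and 0.0687 in DESeq2. With 1 mouse left out in turn, the log2 fold change ran from -0.23 to 0.41 for Pck1, from -0.0784 to 0.115 for Pck2, from -0.65 to 0.0802 for Fbp1, from -0.0722 to 0.0818 for Slc37a4 and from -0.0177 to 0.149 for Creb1. The cause was not tested.

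The 10 genes called higher numbered 0 under equal totals and under each gene's own variance, and 0 to 2 with 1 mouse left out. Those called lower numbered 1 with no fold threshold and 0 to 2 with 1 mouse left out. Their median was -0.0750 under equal totals, 0.0504 in DESeq2 and -0.0724 to 0.0343 with 1 mouse left out. Over all genes, 435 were called higher without a filter, 122 under equal totals, 506 with no fold threshold and 201 to 457 with 1 mouse left out. Those called lower numbered 459, 603 and 484 under the same settings, 197 under each gene's own variance and 172 to 486 with 1 mouse left out, the lowest without control replicate 2 and the highest without AF1 peptide replicate 1. With the replicate number as a block, 1 of the 10 genes was called higher and 0 lower, and 341 and 392 of all genes. Mice with the same number correlated at -0.06 to 0.24 and mice with different numbers at -0.27 to 0.14. Whether the numbers pair the mice is not given by the labels and was not tested.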
